A study of Mus musculus with 208 samples.

Results

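Abhd1, Dpysl5, Atraid and Gm2420 are genes on the chromosome that carries Htt, the gene of huntingtin, and were followed in the striatum of mice with a CAG repeat knocked into 1 copy of Htt. They were selected by a measured value: of 17642 genes tested at 6 months they are the 4 whose level differed from wild type in every knock-in line, so the knock-in against wild-type values of these 4 of 39179 listed genes are given here as a description, with no test. The mRNA of striata was sequenced in 26 groups of 8 libraries. Heterozygous knock-in mice of 6 lines, named Q20, Q80, Q92, Q111, Q140 and Q175 for repeats of 20, 80, 92, 111, 140 and 175 CAG units, were taken at 2, 6 and 10 months of age. Each line of 6 months had wild types that shared its cages, while the wild types of 2 and 10 months had all been housed with Q20. The strain of every mouse is labelled C57BL/6, and both sexes are present in every group, as 4 females and 4 males except for Q80 at 2 months with 3 females and Q20 at 10 months with 5. Nothing in the labels says that the libraries of a group came from separate mice, so p-values measure the spread between these libraries.

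A knock-in allele is made in embryonic stem cells, and the stretch of chromosome that surrounds the targeted gene comes from those cells. Offspring selected for the allele inherit that flanking DNA with it, so wild-type and knock-in littermates can differ at neighbouring genes, which are called passenger genes; a crossover between the allele and a neighbour separates them again. The labels do not name the strain of the stem cells. Dpysl5 encodes CRMP5, a collapsin response mediator protein that binds tubulin and acts in neurite growth. Atraid encodes a membrane protein, named for its induction by retinoic acid, that works with the transporter Slc37a3 in lysosomes. Abhd1 belongs to the alpha/beta hydrolase domain family, and Gm2420 is a predicted gene.

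The 4 genes lie on chromosome 5, all on the same side of Htt, in the order Dpysl5, Abhd1, Atraid, Gm2420, Htt in the GENCODE M21 annotation. That annotation is of GRCm38, the build of the deposited files is not given in the sources used here, and the annotation was therefore used for names and gene order only. Counted over genes kept at 6 months, Dpysl5 is the gene at place 66 from Htt, Abhd1 at 58, Atraid at 54 and Gm2420 at 33. Dpysl5 and Atraid are annotated as protein coding. Abhd1 is a processed transcript in GENCODE and a transcribed pseudogene in RefSeq, and 89.6% of its 1758 exonic bases also lie in exons of Preb, which is read from the opposite strand and encodes a guanine nucleotide exchange factor of the secretory pathway. Of the 2082 exonic bases of Atraid, 396 lie in exons of Slc5a6, a vitamin transporter on the opposite strand. Whether the counting used strand is not given in the sources used here, so reads of overlapping exons could have gone to either gene and the level of Abhd1 is uncertain.

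Gm2420 is annotated as an unprocessed pseudogene, with no parent gene named in the annotation used. Its transcript was aligned with coding transcripts of Sfi1, a centrin-binding gene on chromosome 11, and with no other gene. The alignment of the 2249 bases of the Gm2420 transcript with a coding transcript of Sfi1 held 2128 identical bases in 2266 columns, an identity of 93.9%. The first 100 bases of Gm2420 and the matching stretch of Sfi1 coding sequence are shown because they make plain how similar the sequences are. Capitals mark the 6 positions where they differ, and both come from GENCODE M21 on GRCm38.
Gm2420: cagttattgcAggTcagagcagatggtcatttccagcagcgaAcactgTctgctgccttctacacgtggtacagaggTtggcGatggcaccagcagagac
Sfi1: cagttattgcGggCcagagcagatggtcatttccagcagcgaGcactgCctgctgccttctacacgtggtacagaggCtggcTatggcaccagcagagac
A read from a stretch without a difference could have been assigned to either gene, so Gm2420 levels are uncertain. Sfi1 itself stood at 52.3 ± 4.51 CPM (counts scaled to a common library size of 1 M counts with TMM factors; mean ± SD) in the 48 knock-in libraries of 6 months and 53.9 ± 4.42 in the 48 wild types. The knock-in minus wild-type difference was 0.285 CPM in Gm2420 and -1.52 CPM in Sfi1. Preb stood at 70.2 ± 2.37 and 71.1 ± 2.09 CPM, a difference of -0.945 CPM beside 3.08 CPM in Abhd1. On the log2 scale Preb was at -0.019 (SE 0.0095, adjusted p = 0.113, edgeR) over the 6 lines. Whether reads moved between the genes of a pair was not tested.

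The shallowest library held 29.1 M counts and the deepest 49.6 M. At 2 months 7 libraries stood apart, with 17.2% to 24.1% of their reads mitochondrial, compared with 11.4% to 14.9% for the other 49, and 1 male library of Q80 at 2 months had no counts on Y-linked genes. The 10 markers of striatal projection neurons summed to 5907 to 9033 CPM in wild types of 6 months. Their sum was 4135 to 8882 CPM in the knock-in libraries, and 9 of the 10 fell and 1 rose in knock-in against wild type over the 6 lines by edgeR. Of 6 markers of neuroblasts and immature neurons 4 rose and 0 fell in the same edgeR comparison, their sum running from 262 to 326 CPM in wild types and 264 to 356 CPM in knock-in libraries. Falls were called for 3 of 5 oligodendrocyte, 1 of 3 oligodendrocyte precursor, 2 of 4 astrocyte, 2 of 4 microglia and 2 of 3 endothelial markers, with no rises in those lists. The comparison called 31.6% of all genes, and counts in such short lists are not read as changes of cell types. The part of these marker changes in the levels of the 4 genes was not tested. The 5 choroid plexus markers summed to 10.4 to 5469 CPM in knock-in and 5.78 to 5528 CPM in wild-type libraries of 6 months. In bulk tissue fewer cells of a type and less RNA per cell cannot be told apart. Htt itself ran from 173 to 214 CPM with a median of 193 in the 48 wild types of 6 months and from 139 to 227 CPM with a median of 193 in the knock-in libraries. Against own wild types its log2 change was 0.11 in Q20 (adjusted p = 0.0880) and -0.36 in Q175 (adjusted p = 1.5e-21, edgeR), and the level of Htt does not separate knock-in from wild type in every line.

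Before the results, libraries that went against their genotype labels for these genes must be named. Sorted by Abhd1, the libraries of each age fell into a low and a high set with an empty gap between them, from 2.79 to 4.09 CPM at 2 months, 2.64 to 4.21 at 6 months and 3.02 to 4.63 at 10 months. Of the 144 knock-in libraries 11 lay below the gap with the wild types, and of the 64 wild-type libraries 2 lay above it. Below were Q111 male 1, Q175 male 2, Q20 female 1 and Q92 male 3 at 2 months, Q175 male 2, Q20 females 2 and 4 and Q92 male 4 at 6 months, and Q175 female 1, male 1 and male 2 at 10 months. Above were the wild types female 3 at 2 months and male 4 at 10 months. These 13 libraries were picked on Abhd1 itself after its values were seen, which makes every Abhd1 value without them a description of that choice. They are marked in the plot of all libraries, and results are given with and without them.

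**Figure D1:**
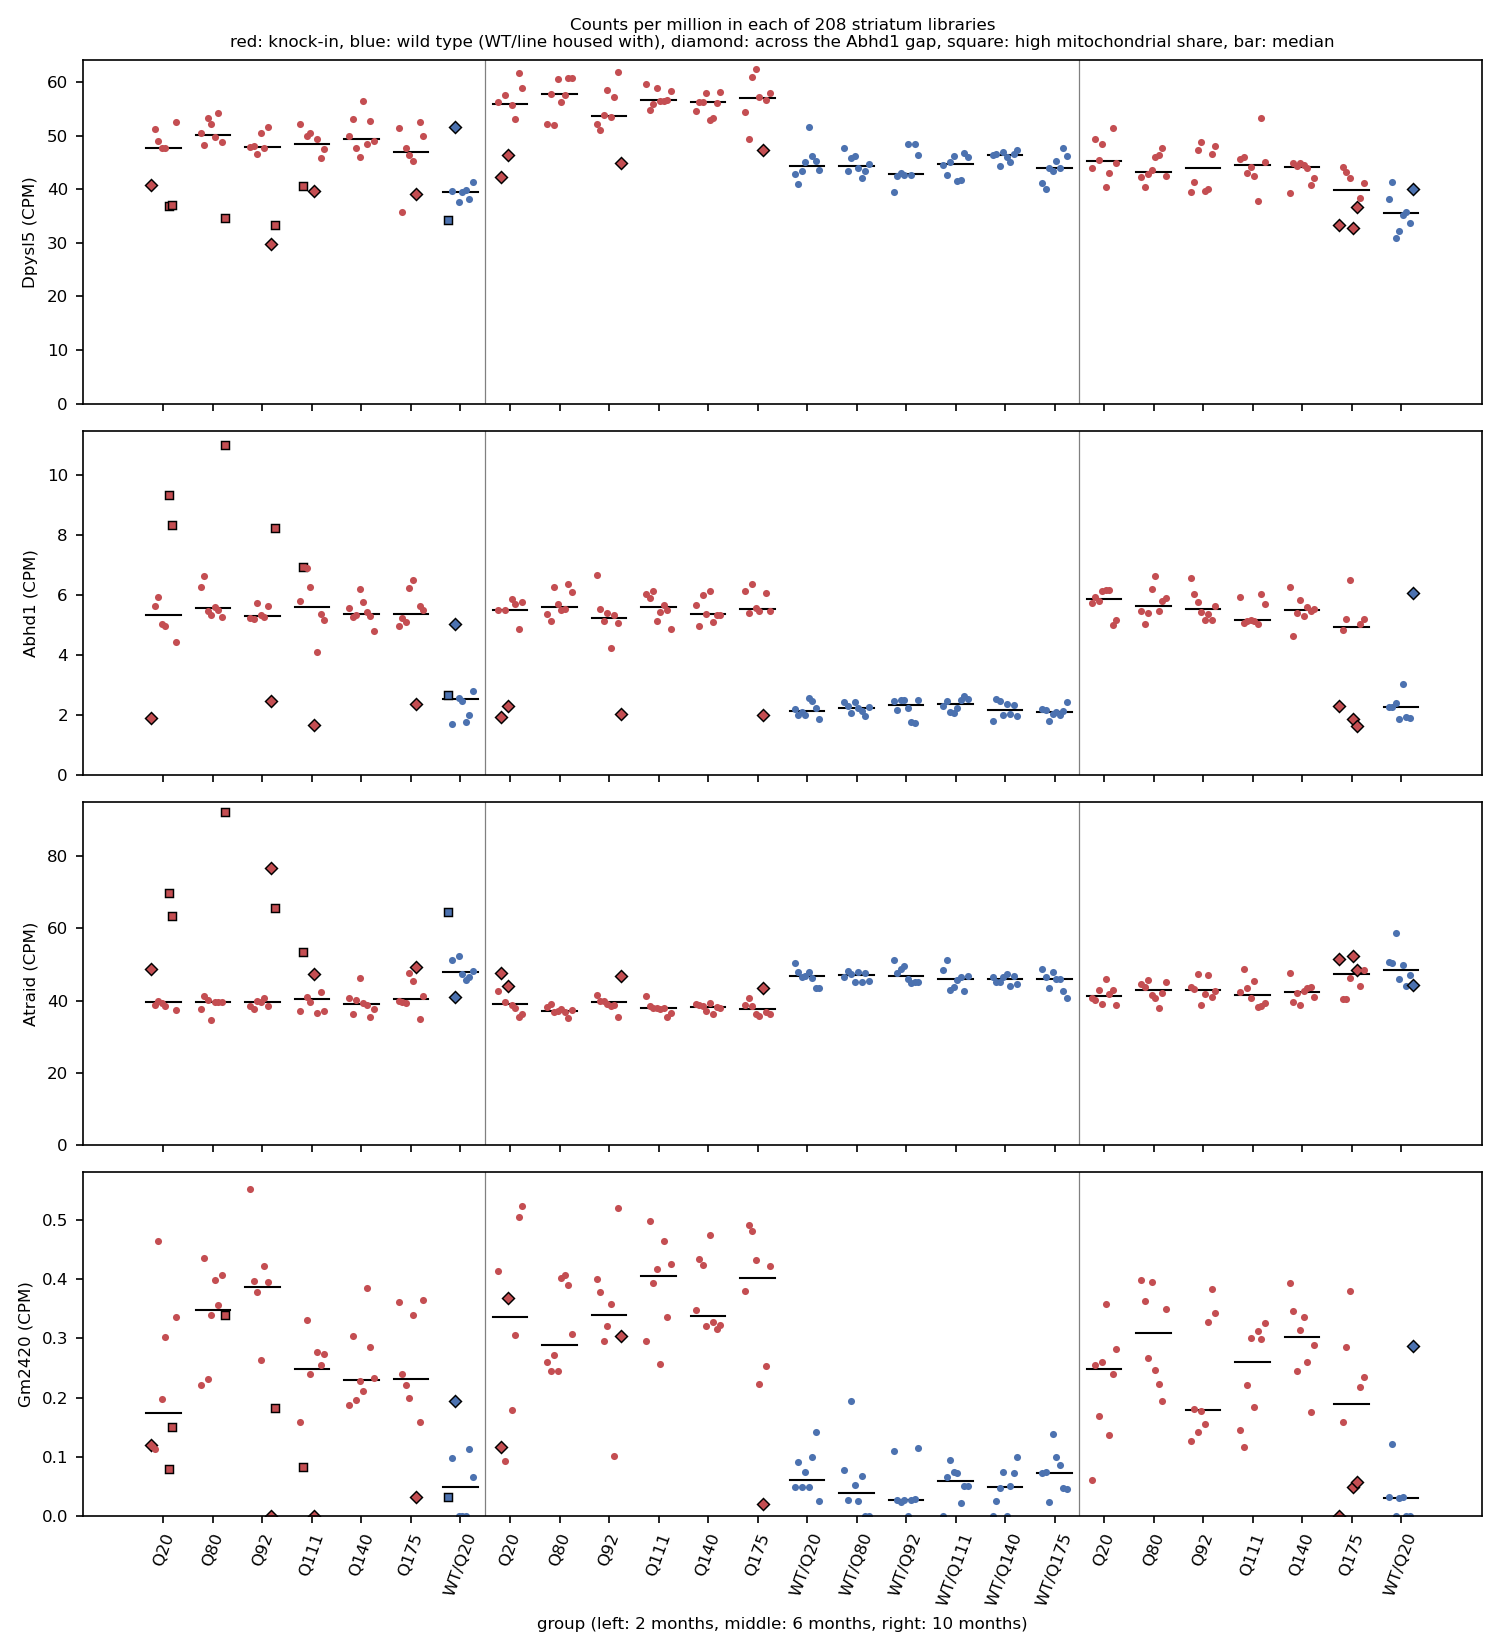
Level in CPM of the 4 genes (y axes, linear from 0, in chromosomal order) in every library of the 26 groups (x axis), with a bar at each group's median. At 6 months 44 of 48 knock-in libraries (red) lie above all own wild types (blue) for Dpysl5, Abhd1 and Gm2420 and 43 below them for Atraid; at 2 and 10 months the genotypes overlap more, and the diamonds are the 13 libraries across the Abhd1 gap.

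Abhd1 was higher in the knock-in mice of every line. At 6 months its level ran from 1.72 to 2.64 CPM with a median of 2.19 in the 48 wild-type libraries and from 1.93 to 6.68 CPM with a median of 5.49 in the 48 knock-in libraries. All 8 libraries of Q80, Q111 and Q140 lay above all of their own wild types, whereas 6 of 8 did so in Q20, 7 of 8 in Q92 and 7 of 8 in Q175; the 4 others are libraries below the gap. By line, the mean was 4.67 ± 1.62 in Q20, 5.74 ± 0.447 in Q80, 4.92 ± 1.36 in Q92, 5.59 ± 0.440 in Q111, 5.48 ± 0.415 in Q140 and 5.31 ± 1.39 in Q175 (CPM, SD, n = 8). Wild-type cage mates stood at 2.16 ± 0.240 with Q20, 2.22 ± 0.171 with Q80, 2.22 ± 0.327 with Q92, 2.35 ± 0.206 with Q111, 2.17 ± 0.270 with Q140 and 2.09 ± 0.177 with Q175. The log2 fold change over own wild types was 1.11 (SE 0.15) in Q20, 1.37 (SE 0.15) in Q80, 1.15 (SE 0.15) in Q92, 1.25 (SE 0.14) in Q111, 1.33 (SE 0.15) in Q140 and 1.34 (SE 0.15) in Q175. Without the 13 libraries the change over all lines was 1.34 in place of 1.26.

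The same step was seen in Abhd1 at the other ages. Levels ran from 1.67 to 11.02 CPM with a median of 5.44 in the 48 knock-in libraries of 2 months. In the 8 wild-type libraries they ran from 1.69 to 5.04 CPM with a median of 2.51. At 10 months the range was from 1.61 to 6.65 CPM with a median of 5.46 and from 1.86 to 6.07 CPM with a median of 2.25, in that order. Both ranges overlap through the libraries across the gap. Group means at 2 months were 5.70 ± 2.31 in Q20, 6.39 ± 1.93 in Q80, 5.39 ± 1.56 in Q92, 5.28 ± 1.74 in Q111, 5.46 ± 0.413 in Q140 and 5.19 ± 1.26 in Q175, against 2.62 ± 1.06 in wild type. These include the libraries with a high mitochondrial share. In those Abhd1 was 9.35 and 8.34 CPM in Q20, 11.02 in Q80, 8.25 and 2.47 in Q92, 6.93 in Q111 and 2.67 in wild type. The 39 knock-in libraries of 2 months neither in that set nor across the gap held 4.09 to 6.91 CPM. At 10 months they were 5.76 ± 0.458 in Q20, 5.74 ± 0.511 in Q80, 5.64 ± 0.483 in Q92, 5.40 ± 0.418 in Q111, 5.51 ± 0.469 in Q140 and 4.06 ± 1.86 in Q175, against 2.71 ± 1.41 in wild type. In the order of the group means no neighbouring lines lay further apart than the larger of their SDs at any age, and the step from the lowest line to the wild types exceeded it at 2 and 6 months but not at 10.

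Gm2420, the member nearest to Htt, had the largest ratio of the 4 and the lowest level. Wild-type libraries of 6 months held 0 to 7 counts each, with 6 of 48 at 0, and the knock-in libraries 1 to 23. Their levels ran from 0 to 0.194 CPM with a median of 0.0511 and from 0.0207 to 0.523 CPM with a median of 0.353. Every library of Q80, Q111 and Q140 was above all own wild types, as were 6 of 8 in Q20 and 7 of 8 in both Q92 and Q175. Line means at 6 months were 0.313 ± 0.169 in Q20, 0.316 ± 0.0725 in Q80, 0.335 ± 0.118 in Q92, 0.386 ± 0.0835 in Q111, 0.371 ± 0.0626 in Q140 and 0.338 ± 0.162 in Q175 CPM. Wild types stood at 0.0725 ± 0.0376 with Q20, 0.0557 ± 0.0630 with Q80, 0.0451 ± 0.0429 with Q92, 0.0542 ± 0.0307 with Q111, 0.0467 ± 0.0364 with Q140 and 0.0737 ± 0.0358 with Q175. On the log2 scale the change over own wild types was 2.06 (SE 0.38) in Q20, 2.49 (SE 0.40) in Q80, 2.84 (SE 0.43) in Q92, 2.77 (SE 0.38) in Q111, 2.88 (SE 0.40) in Q140 and 2.14 (SE 0.37) in Q175. With so few counts in wild types the size of these ratios is poorly fixed, as the SEs show.

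At the other ages Gm2420 showed the same direction in every line. Means at 2 months were 0.221 ± 0.134 in Q20, 0.341 ± 0.0788 in Q80, 0.324 ± 0.171 in Q92, 0.203 ± 0.112 in Q111, 0.254 ± 0.0670 in Q140 and 0.240 ± 0.115 in Q175 CPM, against 0.0627 ± 0.0694 in wild type. At 10 months the lines stood at 0.220 ± 0.0933 in Q20, 0.305 ± 0.0812 in Q80, 0.230 ± 0.104 in Q92, 0.238 ± 0.0823 in Q111, 0.295 ± 0.0681 in Q140 and 0.173 ± 0.131 in Q175 CPM, against 0.0632 ± 0.0991 in wild type. Neighbouring lines in that order differed by less than the larger SD at each age, and the wild types followed below the lowest line by more than it at 2 and 6 months. The Q175 mean of 10 months, the lowest of the knock-in means of that age, includes the 3 libraries below the gap with 0, 2 and 2 counts.

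Dpysl5 was higher in the knock-in mice by a smaller ratio at a higher level. At 6 months its 48 wild-type libraries ran from 39.4 to 51.6 CPM with a median of 44.8, and the 48 knock-in libraries from 42.2 to 62.5 CPM with a median of 56.3. The groups of Q80, Q111 and Q140 did not overlap their own wild types. Mean levels were 54.0 ± 6.55 in Q20, 57.2 ± 3.56 in Q80, 54.1 ± 5.22 in Q92, 57.1 ± 1.66 in Q111, 55.7 ± 1.98 in Q140 and 55.8 ± 5.26 in Q175 CPM. Their wild types were at 44.9 ± 3.15 with Q20, 44.6 ± 1.81 with Q80, 44.2 ± 3.22 with Q92, 44.3 ± 2.10 with Q111, 46.2 ± 0.968 with Q140 and 44.0 ± 2.52 with Q175. As log2 fold changes over own wild types these are 0.27 (SE 0.049) in Q20, 0.36 (SE 0.049) in Q80, 0.29 (SE 0.049) in Q92, 0.37 (SE 0.049) in Q111, 0.27 (SE 0.049) in Q140 and 0.34 (SE 0.049) in Q175. Without the 13 libraries the value over all lines was 0.34 (SE 0.016) in place of 0.32 (SE 0.020).

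Dpysl5 kept its direction in every line at the other ages. Knock-in means at 2 months were 45.3 ± 6.24 in Q20, 48.9 ± 6.17 in Q80, 44.4 ± 8.14 in Q92, 46.9 ± 4.60 in Q111, 50.4 ± 3.42 in Q140 and 46.0 ± 5.91 in Q175 CPM, against 40.2 ± 5.05 in wild type. Means of the later age, 10 months, were 45.9 ± 3.63 in Q20, 44.0 ± 2.48 in Q80, 43.9 ± 4.14 in Q92, 44.7 ± 4.32 in Q111, 43.1 ± 2.10 in Q140 and 39.0 ± 4.37 in Q175 CPM, against 35.9 ± 3.67 in wild type. Neither age had a step between neighbouring groups larger than the larger SD; at 6 months the step from Q20 down to the highest wild-type group exceeded it. Since the ages were scaled apart, levels of different ages are set side by side only.

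Atraid was the 1 member with the opposite sign. Wild-type libraries of 6 months ran from 40.8 to 51.2 CPM with a median of 46.5, and knock-in libraries from 35.2 to 47.5 CPM with a median of 38.2. Every library of Q80, Q111 and Q140 was below all own wild types, as were 6 of 8 in Q20, 7 of 8 in Q92 and 6 of 8 in Q175. Lines stood at 40.3 ± 4.15 in Q20, 37.3 ± 1.13 in Q80, 40.1 ± 3.24 in Q92, 38.0 ± 1.68 in Q111, 38.2 ± 0.985 in Q140 and 38.3 ± 2.69 in Q175 CPM. Cage mates stood at 46.7 ± 2.29 with Q20, 46.7 ± 1.29 with Q80, 47.3 ± 2.43 with Q92, 46.0 ± 2.93 with Q111, 45.8 ± 1.21 with Q140 and 45.3 ± 2.72 with Q175. Log2 fold changes over own wild types were -0.21 (SE 0.038) in Q20, -0.33 (SE 0.038) in Q80, -0.24 (SE 0.038) in Q92, -0.28 (SE 0.038) in Q111, -0.26 (SE 0.038) in Q140 and -0.24 (SE 0.038) in Q175. The overlapping gene Slc5a6 did not move that way: it was -0.010 in Q20 (adjusted p = 0.982, edgeR) and 0.20 in Q175 (adjusted p = 0.00315, edgeR).

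The libraries with a high mitochondrial share touch Atraid most. At 2 months knock-in means were 47.0 ± 12.7 in Q20, 45.7 ± 18.9 in Q80, 47.2 ± 15.1 in Q92, 41.9 ± 5.95 in Q111, 39.4 ± 3.33 in Q140 and 42.2 ± 4.88 in Q175 CPM, against 49.6 ± 6.95 in wild type. The 7 libraries that stood apart held 53.6 to 92.2 CPM of Atraid and 29.9 to 40.6 CPM of Dpysl5. Of the other libraries not across the gap, 39 knock-in libraries held 34.8 to 47.6 CPM of Atraid and 6 wild-type libraries 45.7 to 52.4. With all libraries the log2 change of Atraid over the lines was -0.19 (SE 0.11) at 2 months, and without the 7 it was -0.25 (SE 0.048). For Q20 alone it was -0.088 (SE 0.15) with and -0.24 (SE 0.067) without them. At 10 months lines stood at 41.6 ± 2.42 in Q20, 42.7 ± 2.64 in Q80, 43.3 ± 2.89 in Q92, 42.1 ± 3.70 in Q111, 42.4 ± 2.76 in Q140 and 46.5 ± 4.59 in Q175 CPM, against 48.9 ± 4.82 in wild type. The order of the groups had no step above the larger SD at 2 or 10 months, and 1 at 6 months, between the lowest wild-type group and Q20.

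Per length, the 4 genes differ widely in level. The authors' FPKM, fragments scaled by gene length and by library size, averaged 44.0 ± 2.18 for Atraid, 9.68 ± 0.529 for Dpysl5, 1.65 ± 0.192 for Abhd1 and 0.0372 ± 0.0268 for Gm2420 in the 48 wild types of 6 months. In the 48 knock-in libraries of that age the FPKM means were 37.7 for Atraid, 12.4 for Dpysl5, 4.07 for Abhd1 and 0.224 for Gm2420, so the order of the genes was the same in both genotypes.

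The count of genes that set the members apart was small. At 6 months 0.0227% of genes tested were called in 1 direction in all 6 lines against own wild types by edgeR's quasi-likelihood test at an adjusted p under 0.05, and these are the 4 members by the rule that chose them. Q20 against its wild types gave the same 0.0227%, again the members only. No gene was called so in 5 lines and 4 in 4 lines. Of those 4, Ppp1cb, a catalytic subunit of protein phosphatase 1 that lies 2 genes from Gm2420, is within 10 Mb of Htt; Ptprv, Plk5 and Krt9 are not. Its log2 change was -0.041 in Q20, -0.17 in Q92 and -0.26 in Q175, and it was lower than all own wild types in 8 of 8 libraries of Q92, Q111 and Q140, in 7 of 8 of Q80 and Q175 and in 5 of 8 of Q20. Prr14l, 2 genes on the other side of Gm2420, was at 0.18 in Q20 and -0.011 in Q175. Neither passed the threshold of the rule. Ptprv, Plk5 and Krt9, like Sfi1 above and Scn4b, Penk and Gpx6 below, were named after their values were seen. All 8 libraries lay on 1 side of all 8 own wild types in 0.0283% of genes in Q80, 1.56% in Q111 and 6.08% in Q140, the lines in which 4 of 4 members did so. In Q20 (0.0283% of genes), Q92 (0.017%) and Q175 (10%) none of the 4 did. Each of these lines has libraries below the gap, but the overlaps are not all theirs. Atraid was below all own wild types in 6 of 8 Q175 libraries, though only male 2 of that group lies below the gap. The below-gap libraries Q20 female 4 and Q92 male 4 exceeded every wild type of 6 months in Gm2420.

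Other genes around Htt were not called in every line. Of 172 genes kept within 10 Mb of Htt, 168 are no members, with Htt itself among the 168. By edgeR 0 of the 168 were called for Q20 against own wild types (13 at an unadjusted p under 0.05). For Q80 it called 1, which was Htt, and for Q92 1. Of genes on other chromosomes 0.0241% were called in Q80 and 0.0241% in Q92. In Q175 41.1% of the 168 were called, 40 higher and 29 lower, against 31.3% in the rest of the chromosome and 31.7% of genes on other chromosomes. In Q111 these shares were 9.52%, 9.3% and 8.89%, and in Q140 they were 32.7%, 22.2% and 24.2%. On the members' side of Htt 41.3% of the 109 other genes were called in Q175, and 39.7% of the 58 on the far side. The nearest neighbours of the members were called in few lines, if any. Cenpa, Mapre3, Tmem214, Khk, Preb, Tcf23, Cad, Slc30a3, Yes1, Pisd and Prr14l were called in 0 of 6 lines, Cgref1 in 1 (lower), Slc35f6 and Slc5a6 in 2 (higher) and Ppp1cb in 4 (lower). Slc30a3, a zinc transporter of synaptic vesicles, had log2 changes from -0.76 in Q20 to 0.23 in Q92, larger in Q20 than that of Atraid, without passing the test in any line. Preb, whose exons overlap Abhd1, had log2 changes from -0.041 to 0.0058 over the 6 lines.

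**Figure D2:**
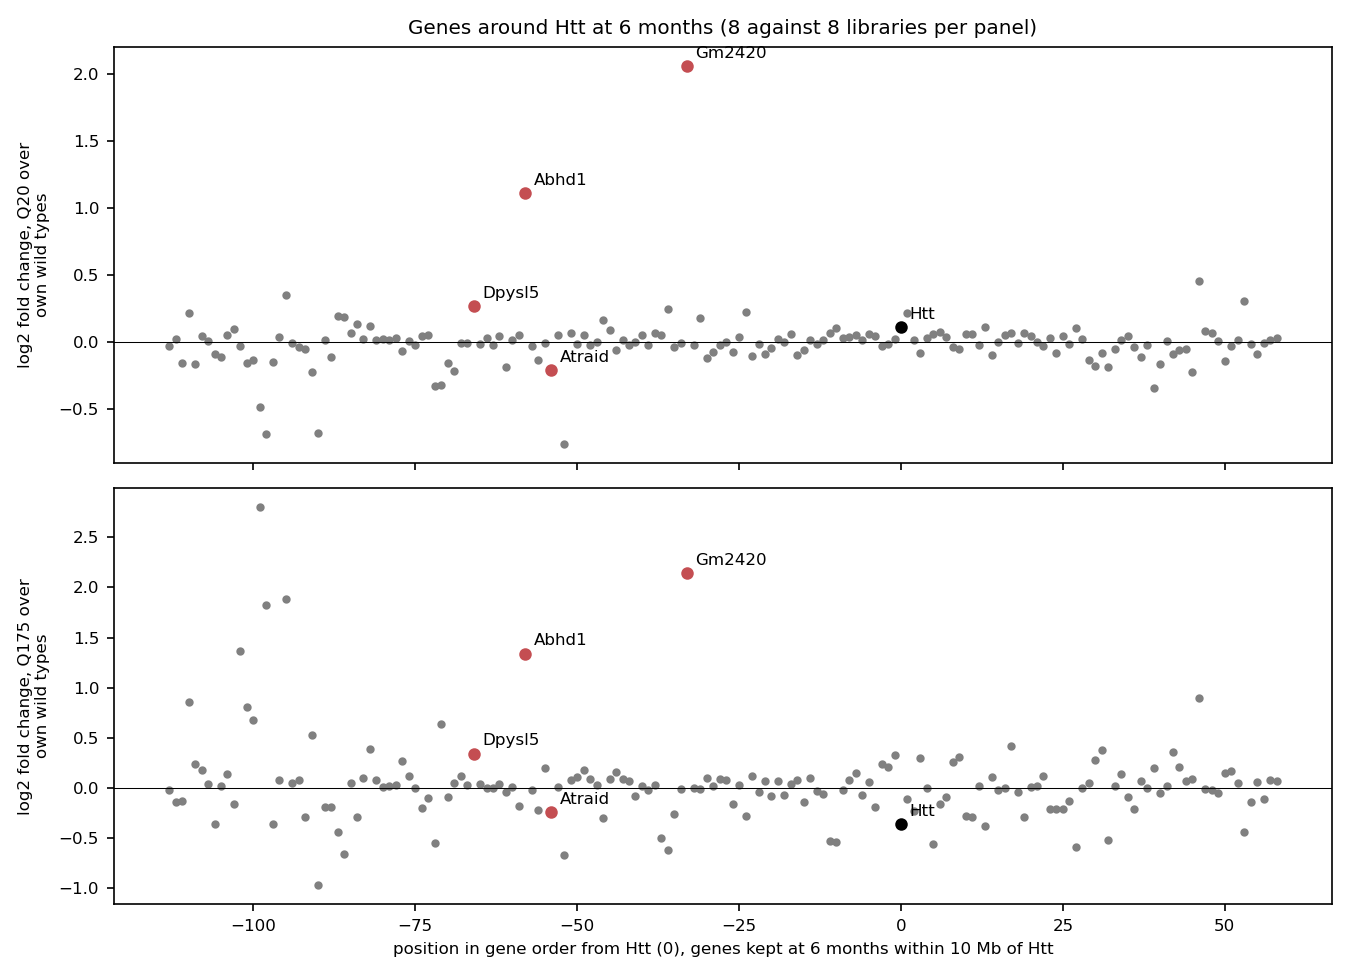
Log2 fold change over own wild types at 6 months (y axis) of the genes within 10 Mb of Htt, in chromosomal order counted from Htt (x axis), for Q20 (top) and Q175 (bottom), 8 against 8 libraries. Of 167 other genes (grey; Htt in black), 0 exceed Abhd1 in Q20 and 4 in Q175, while 3 and 14 exceed Dpysl5 and 10 and 24 lie below Atraid.

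The lines were then compared with each other, a contrast that the rule did not use, though it used the same libraries of 6 months. At 6 months none of the 4 members differed among the 6 lines by edgeR's quasi-likelihood F test at an adjusted p under 0.05, where 40.3% of all genes did. Adjusted p was 0.354 for Abhd1, 0.459 for Dpysl5, 0.919 for Gm2420 and 0.0590 for Atraid in this test. Atraid was the 1 member at an unadjusted p under 0.05, and DESeq2 called it (adjusted p = 0.0422). limma on log2(FPKM + 1) called Dpysl5 (adjusted p = 0.0437) and not Atraid (0.0936). Without the 13 libraries the adjusted p of Atraid was 0.417. No test of a line against Q20 called a member (0 of 20 by edgeR and 0 by DESeq2, with 4 at an unadjusted p under 0.05), where 42.3% of genes were called in at least 1 line. limma on log2(FPKM + 1) called 3. The trend with repeat length called 0 of 4 by edgeR and DESeq2, with 0 at an unadjusted p under 0.05, and 2 by limma, against 42.2% of all genes by edgeR.

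The rule used each line's change over own wild types at 6 months, so nothing is read from how alike those changes are. Tests of a line's own change against that of Q20 at 6 months are built from those same values and are given as a description only. Of 20 such tests edgeR called 0 (1 at an unadjusted p under 0.05, and 0 by limma). Of all genes 25.2% were called in at least 1 line. For Q175 minus Q20 the difference of the 2 changes was 0.23 (SE 0.21) for Abhd1, 0.077 (SE 0.069) for Dpysl5, -0.026 (SE 0.053) for Atraid and 0.076 (SE 0.57) for Gm2420 on the log2 scale. Among the 6 wild-type groups of 6 months 0 of 4 members differed by edgeR (0 at an unadjusted p under 0.05, 0 by limma), against 1.34% of genes. At 2 months no member was called among lines (0.494% of genes), against Q20 (0.235% in at least 1 line) or in the trend (0.594%), by edgeR, DESeq2 or limma, and none of these tests had an unadjusted p under 0.05.

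At 10 months 3 members differed in Q175. Levels in Q175 ran from 1.61 to 6.49 CPM of Abhd1 with a median of 4.93, against 4.99 to 6.18 with a median of 5.87 in Q20. The 3 libraries below the gap were low and the 5 others overlapped Q20. By edgeR's quasi-likelihood test with Benjamini-Hochberg adjustment, Q175 against Q20 was -0.51 (SE 0.18, adjusted p = 0.0302) for Abhd1, -0.24 (SE 0.062, adjusted p = 0.00311) for Dpysl5 and 0.17 (SE 0.055, adjusted p = 0.0201) for Atraid. Gm2420 stood at -0.37 (SE 0.40, adjusted p = 0.542) in the same edgeR test. Of all genes 24.5% were called in this test, and 30.9% in at least 1 of the 5 lines. The trend with repeat length called the same 3 members, against 34.3% of genes, and the test among the 6 lines called Dpysl5 (adjusted p = 0.0327), against 31.3%.

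These calls were lost when the libraries across the gap were left out, which for Abhd1 follows from how they were picked. Without the 13 libraries, of which 3 are Q175 and 1 wild type at this age, edgeR gave -0.11 (SE 0.084, adjusted p = 0.361) for Abhd1, -0.14 (SE 0.064, adjusted p = 0.110) for Dpysl5, 0.078 (SE 0.060, adjusted p = 0.372) for Atraid and 0.20 (SE 0.33, adjusted p = 0.703) for Gm2420. The Abhd1, Dpysl5 and Atraid values kept their signs and each lay more than its SE from 0, with fewer libraries. No member was then called in any of the 3 families of tests, and Gm2420 changed sign. The trend without the Q175 line called 0 members as well. The sum of the projection neuron markers, 4985 to 6893 CPM in Q20 and 3072 to 4105 in Q175 of 10 months, also moved with this comparison, and its part in the result was not tested.

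**Figure D3:**
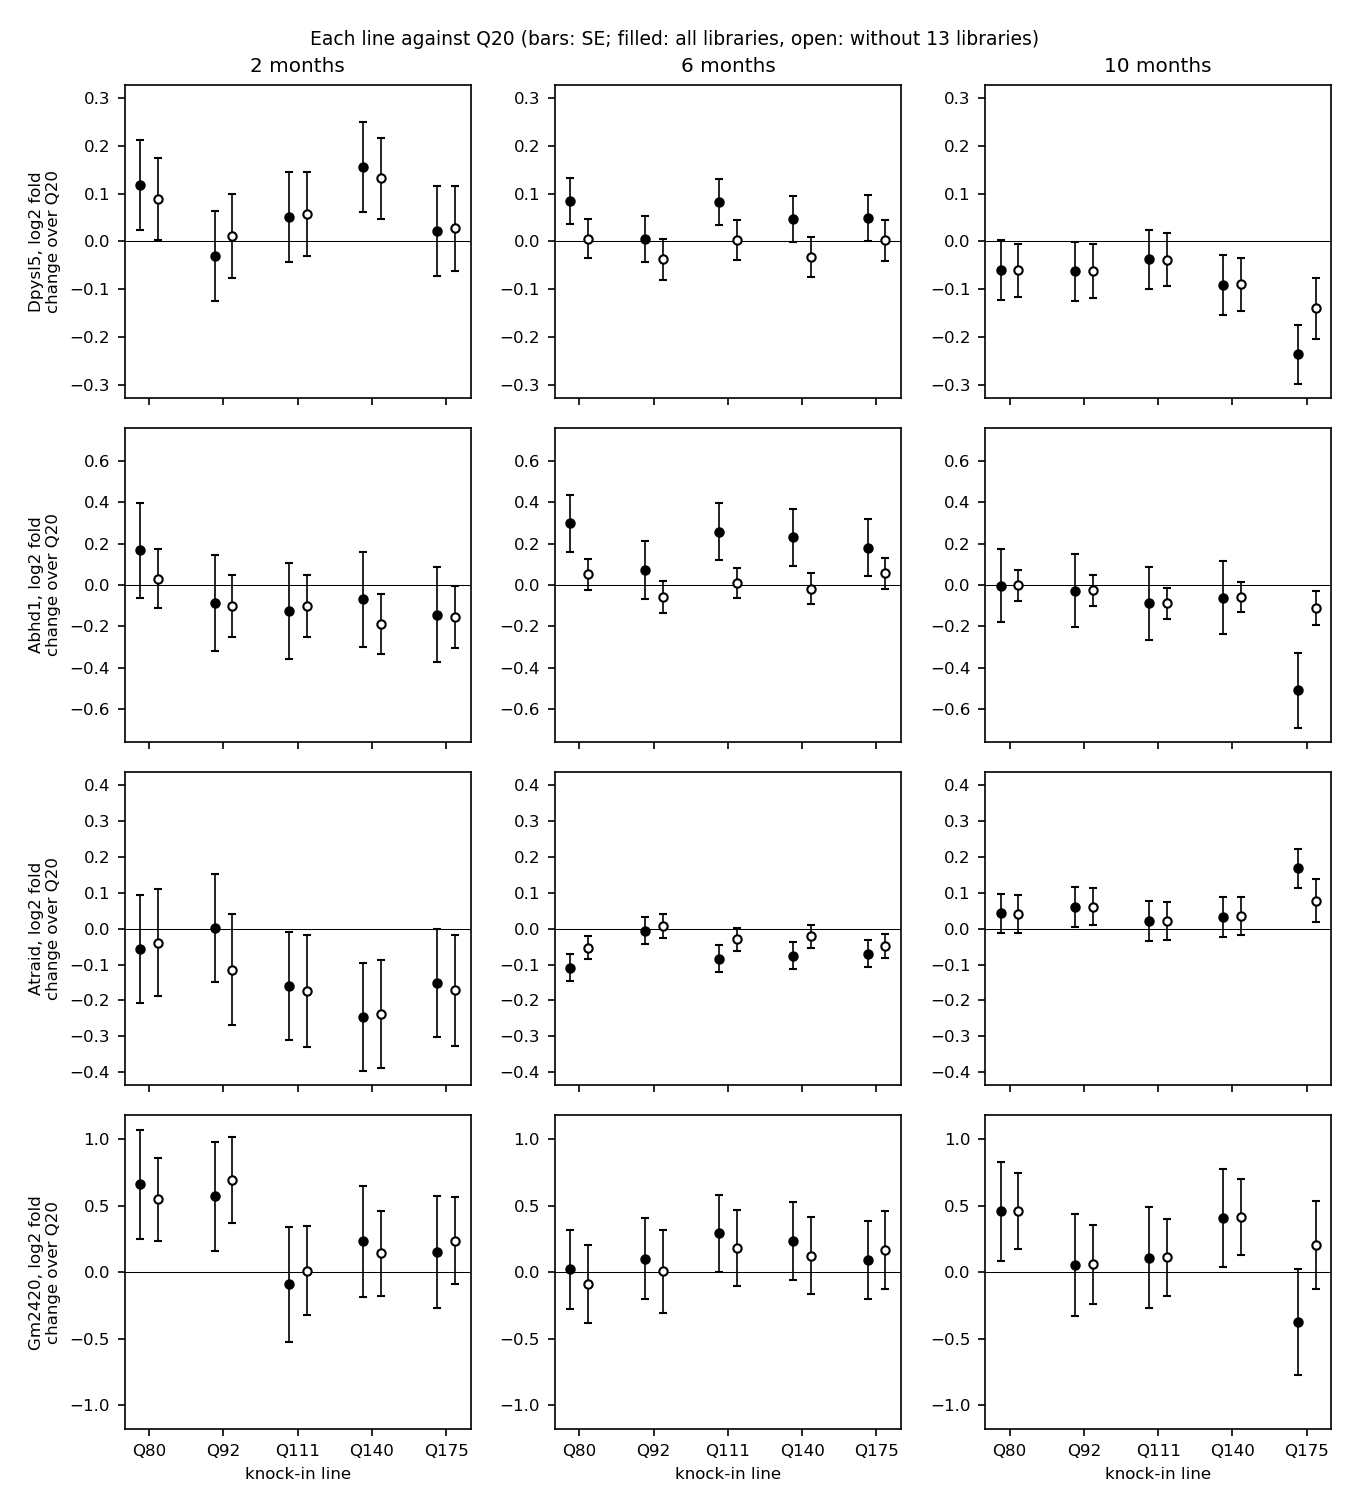
Log2 fold change of each line over Q20 (y axis, bars are SE) by line (x axis) for the 4 genes at 2, 6 and 10 months, with all libraries (filled) and without the 13 libraries across the Abhd1 gap (open). At 10 months the filled Q175 points of Abhd1, Dpysl5 and Atraid leave 0, and the open ones lie closer to it.

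The other 3 genes were then read in the libraries across the gap, which were picked on Abhd1. The rule chose these 3 with Abhd1 for a step between knock-in and wild type, which itself makes them alike. Each library was set beside the 5 to 7 libraries of its group not across the gap. Of the 11 knock-in libraries below the gap, 9 lay outside that range on the wild-type side for Dpysl5, 9 for Atraid and 7 for Gm2420. No share over all genes is given for these counts. Q92 male 3 of 2 months is also 1 of the 7 libraries with a high mitochondrial share, which as a set had low Dpysl5 and high Atraid; without it the counts are 8, 8 and 6 of 10. In Q175 of 10 months all 3 libraries lay outside the other 5 on the wild-type side for each gene. This too is without a share over all genes, so it is not read as a trait of the members. Dpysl5 was 33.3, 32.8 and 36.7 CPM there against 38.4 to 44.1 in the other 5. Atraid was 51.4, 52.5 and 48.6 CPM against 40.4 to 48.5. Some other genes lay in or near the range of the rest of the line and some did not. Htt stood at 125, 117 and 132 CPM, inside the 84.5 to 136 of the other 5, and Scn4b, a sodium channel subunit of the striatum, at 664, 541 and 606 CPM against 455.8 to 657 in those 5 and 1358 to 1655 in the other 7 wild types of that age. Penk, of projection neurons, stood at 548, 498 and 517.6 CPM against 412 to 529, and Gpx6, a peroxidase gene, at 1.56, 0.572 and 1.41 CPM against 0.793 to 1.36, outside the other 5 in all 3 libraries. Sfi1 of male 1, at 41.1 CPM, was above the 29.2 to 38.0 of those 5. Scn4b of all 3 libraries lay below those 7 wild types. Abhd1 stood at 2.27, 1.84 and 1.61 CPM in the 3, against 1.86 to 3.02 CPM in the same 7 wild types. How these levels go together was not tested. Q175 male 2 at 6 months had Abhd1 at 1.99, Dpysl5 at 47.4, Atraid at 43.5 and Gm2420 at 0.0207 CPM. Each of these lay inside the range of the wild types of 6 months.

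In 2 libraries of 6 months Gm2420 did not go with the other 3 genes. Q20 female 4 had Abhd1 at 2.28, Dpysl5 at 46.3 and Atraid at 44.1 CPM, all inside the wild-type range, but Gm2420 at 0.369 CPM from 16 counts. Q92 male 4 had Abhd1 at 2.01, Dpysl5 at 44.8 and Atraid at 46.8 CPM with Gm2420 at 0.304 CPM from 10 counts. Both Gm2420 levels exceed the highest of the 48 wild types of that age, 0.194 CPM, while the other 3 genes were inside the wild-type range. They rest on 16 and 10 counts of a gene that may share reads with Sfi1, and their cause was not tested. Q20 female 2, of the same group as female 4, had 5 counts of Gm2420 (0.116 CPM) with Abhd1 at 1.93 CPM. At 2 months Q20 female 1 had 4 counts of Gm2420, too few to place it.

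The 2 wild types above the gap were read in the same way. Female 3 of 2 months had Abhd1 at 5.04, Dpysl5 at 51.6, Atraid at 41.1 and Gm2420 at 0.194 CPM, each outside the other 7 wild types on the knock-in side. Male 4 of 10 months had 6.07, 40.0, 44.2 and 0.288 CPM of the same genes, with Abhd1 and Gm2420 outside the other 7 and Dpysl5 and Atraid inside. What sets the 13 libraries apart was not tested.

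**Figure D4:**
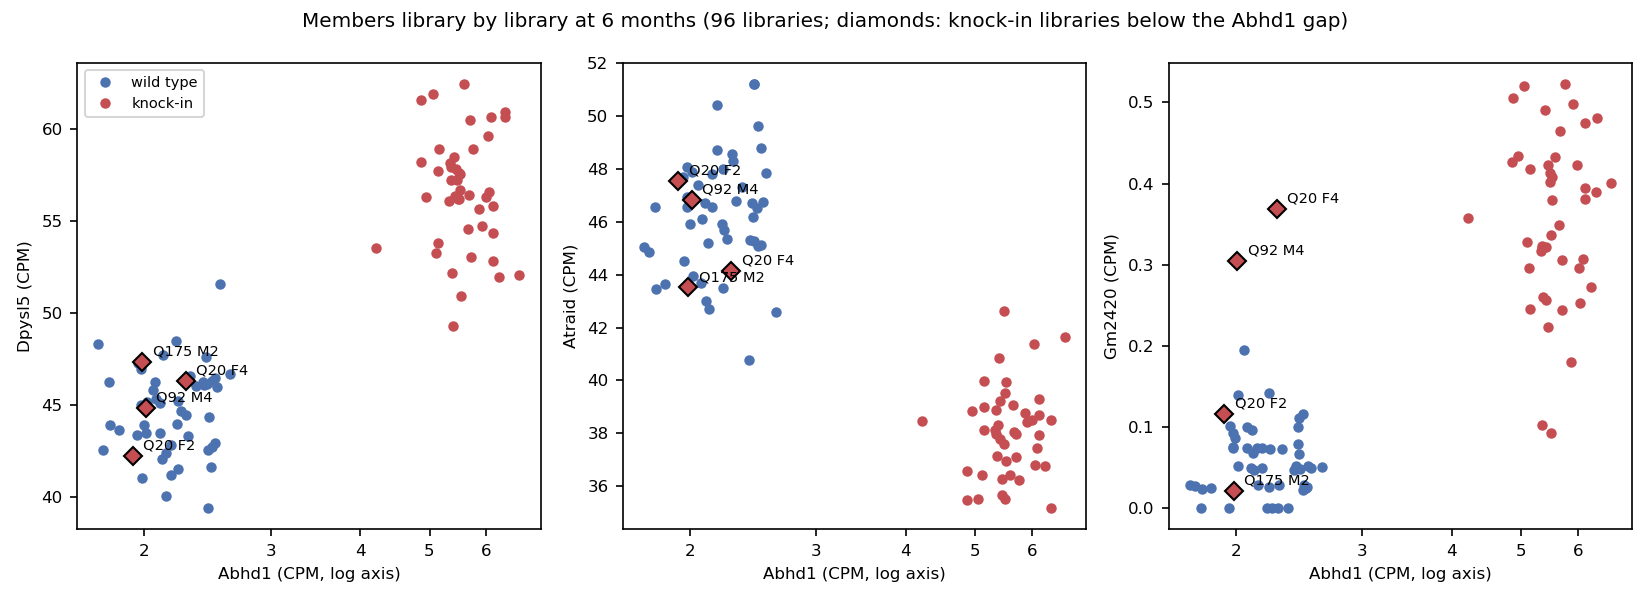
Dpysl5, Atraid and Gm2420 (y axes, CPM) against Abhd1 (x axis, CPM, log scale) in the 96 libraries of 6 months, wild type in blue and knock-in in red, with the 4 knock-in libraries below the Abhd1 gap as named diamonds. All 4 diamonds lie among the wild types for Dpysl5 and Atraid, and Q20 F4 and Q92 M4 lie at the knock-in level of Gm2420.

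Sex and age were looked at apart from genotype. Atraid of 6 months was 47.2 ± 2.24 CPM in 24 female and 45.3 ± 1.804 in 24 male wild-type libraries. In the 24 knock-in libraries of each sex it was 39.6 ± 2.51 and 37.8 ± 2.61. The ranges of the sexes overlap in both genotypes. The male minus female difference was -0.062 (SE 0.015) on the log2 scale (adjusted p = 0.00185 by edgeR's quasi-likelihood test), and 18.5% of genes were called for sex at this age. The other 3 members were not called at 6 months, and no member at 2 months (0.923% of genes) or 10 months (1.28%), by edgeR or limma, with 0 at an unadjusted p under 0.05 at both ages. The knock-in change was not called as different between the sexes for any member at 2, 6 or 10 months by edgeR or limma, where edgeR called 0%, 0% and 0% of genes; Abhd1 at 10 months was the 1 test at an unadjusted p under 0.05. For the age difference of the Q20 change, 12 tests called 0 (0 at an unadjusted p under 0.05, 0 by limma), and 0% of genes were called. From 2 to 10 months the Q20 change of Dpysl5 differed by 0.18 (SE 0.10) and that of Abhd1 by -0.048 (SE 0.27), which the spread between libraries does not separate from 0.

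For Q20 against own wild types at 6 months edgeR called 0.0227% of all genes, the members only. With so few calls, the counts of relatives of the members say nothing about their families. They were 0 of 4 other collapsin response mediator genes (0 at an unadjusted p under 0.05) and 0 of 19 other hydrolase family genes (1). Among genes of retinoid signalling and partners of Atraid the count was 0 of 19 (1). For Q175 against Q20 at that age, where 36.2% of all genes were called, Dpysl3 rose by 0.46 and Dpysl4 by 0.15 on the log2 scale, and Crmp1 and Dpysl2 were not called. The median of the 4 was 0.11 against 0.0097 over all genes. Among 19 other hydrolase family genes tested, 3 rose (Abhd12b, Abhd14b, Abhd16a) and 2 fell, Abhd2 at -0.28 and Abhd14a at -0.28, with a median of -0.013. The rise of Abhd12b was 3.29 (SE 1.32), and in Q20 that gene stood at -3.46 (SE 1.33) against own wild types. It was called in 0 lines against own wild types. Of 19 genes of retinoid signalling and partners of Atraid, 3 rose and 7 fell, with a median of -0.068. Falls included the retinoid receptors Rxrg at -0.78 and Rarb at -0.50 and the retinol carrier Rbp4 at -0.82. Rises were those of Nell2 at 0.33, Rara at 0.20 and Slc37a3, the lysosomal partner of Atraid, at 0.093.

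Likeness was measured by Pearson's r over the 26 group means of log2 CPM, each less the wild-type mean of its age, among 16865 genes kept at all ages; as a description it carries no test, and the group means share libraries, scaling and wild types. The rule, which asked for a step between knock-in and wild type in every line, itself makes members alike over these groups, so nothing is read from r between members. Abhd1 stood at r = 0.972 with Gm2420 and 0.951 with Dpysl5, and Atraid at -0.918 with Abhd1 and -0.949 with Dpysl5. Beyond the members, nearest to Abhd1 were Gm11331 (r = 0.749), 2610318N02Rik (r = 0.719), Galnt11 (r = 0.717), Gm6410 (r = 0.716), Smim18 (r = 0.708). To Dpysl5 the nearest were Gm11331 (r = 0.744), Gm6410 (r = 0.739), Gm5067 (r = 0.709), Prr14l (r = 0.689), 2610316D01Rik (r = 0.686). To Gm2420 they were Gm11331 (r = 0.734), Phlda1 (r = 0.717), Fam174b (r = 0.716), Smim18 (r = 0.711), 2610318N02Rik (r = 0.709). To Atraid they were Ppp1cb (r = 0.823), Tbc1d23 (r = 0.739), Ccne2 (r = 0.707), Jakmip1 (r = 0.707), Prelid3a (r = 0.699), the first of them the neighbour that lies between Atraid and Gm2420. Over the 12 groups of 6 months 0, 0, 1 and 1 of the 5 genes were again among the nearest for Abhd1, Dpysl5, Atraid and Gm2420.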

How the data were processed

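Polyadenylated RNA of the striatum, 8 libraries in each of 26 groups, was sequenced on Illumina HiSeq instruments, per the labels' protocols, and CASAVA 1.8.2 is named in the submitters' processing notes. Neither the aligner nor the build nor any use of strand in counting is stated in the labels. The authors deposited expected counts per gene, which were rounded to whole numbers, and FPKM, which allow for gene length. Each age was fitted with edgeR 4.0.16 in R 4.3.3: filterByExpr with a minimum count of 10 (17006, 17642 and 17170 genes at 2, 6 and 10 months), TMM factors, trended dispersion, a robust quasi-likelihood test with 1 term per group and sex, and Benjamini-Hochberg adjustment over all genes kept, called under 0.05. The SE is the log2 change over the square root of F. DESeq2 1.42.0, limma 3.58.1 on log2(FPKM + 1), RLE factors, no filter, a replicate block and the library L code were alternatives. Transcripts were aligned with blastn 2.17.0. Counting error does not include PCR copies. The members and gene lists were chosen with earlier results of these data known; the genes named are the members, Htt, the 2 neighbours on each side and overlapping genes, genes near Htt called in 5 or 6 lines, the 5 genes most like each member and relatives past the threshold. A gene symbol matched 37607 (96%) of 39179 IDs.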

Additional observations from a re-analysis of the deposited data

Results flagged for a closer look

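A library whose distance from the nearest other library of its group is too large a share of the group's range by Dixon's test at 95% was marked, in 104 sets of 8 libraries (4 genes in 26 groups); chance alone marks about 1 set in 20. This marked 11 values. Of these, 6 are in libraries across the Abhd1 gap. Male 2 of Q175 at 2 months read 2.36 CPM of Abhd1 against 4.97 in the nearest library. Male 2 of Q175 at 6 months read 1.99 CPM of Abhd1 against 5.40 in the nearest library. Female 3 of the wild types housed with Q20 at 2 months read 5.04 CPM of Abhd1 against 2.79 in the nearest library. Male 4 of the wild types housed with Q20 at 10 months read 6.07 CPM of Abhd1 against 3.02 in the nearest library. Female 3 of the wild types housed with Q20 at 2 months read 51.6 CPM of Dpysl5 against 41.4 in the nearest library. Male 4 of the wild types housed with Q20 at 10 months read 0.288 CPM of Gm2420 against 0.122 in the nearest library. In 1 library with a high mitochondrial share all 3 values marked were extreme. Male 5 of Q80 at 2 months read 11.02 CPM of Abhd1 against 6.64 in the nearest library. Male 5 of Q80 at 2 months read 34.6 CPM of Dpysl5 against 48.2 in the nearest library. Male 5 of Q80 at 2 months read 92.2 CPM of Atraid against 41.4 in the nearest library. The 2 others are in libraries with neither mark. Female 3 of the wild types housed with Q20 at 10 months read 58.8 CPM of Atraid against 50.8 in the nearest library. Female 3 of the wild types housed with Q80 at 6 months read 0.194 CPM of Gm2420 against 0.0788 in the nearest library. The Gm2420 value rests on 7 counts.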

How the results depend on the processing

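Of 147 alternative counts of members or genes called, 134 stayed within 1.5 times the reported count. Differences among the 6 lines at 6 months called 0 members; RLE factors, limma on log2(FPKM + 1), the fit with a replicate block and DESeq2 each called 1, which was Dpysl5 by limma and Atraid by the others. At 10 months that test called 1 member, against 3 by limma, 2 with only the 6 knock-in groups in the fit and 0 without the 13 libraries. Tests of a line against Q20 called 3 by limma in place of 0 at 6 months, and 0 in place of 3 at 10 months without the 13 libraries. The trend called 2 by limma in place of 0 at 6 months. At 10 months it called 1 without a filter on low counts, 0 without the 13 libraries and 0 without Q175, in place of 3. limma tested 3 of the 4 members, since Gm2420 did not pass 1 FPKM in 8 libraries, so the 4 genes within 10 Mb of Htt called in all lines were then 3. The cause of the other differences was not tested. Of 71 alternative single values 46 stayed, 17 kept direction but no longer passed the threshold and 8 moved. The 17 are all Q175 against Q20 or the trend at 10 months, for Abhd1, Dpysl5 or Atraid, and the 8 are the lists of genes most like each member. Of 539 alternative log2 changes over wild type, 2 changed sign: Atraid in Q20 at 2 months with the library L code as a covariate (0.0090) and Atraid in Q175 at 10 months by limma (0.017). Replicate numbers did not pair libraries: same-numbered libraries deviated from their groups with a median correlation of -0.0007 at 2 months, 0.055 at 6 and 0.015 at 10; with the replicate block no other count of calls moved by over 1.5 times, and the sex test was not run with it, since numbers run within a sex. Alternatives that leave out the 13, the 7 or the 1 library lacking Y-linked counts were chosen after seeing the data. Gm2420, with 0 to 23 counts in a library of 6 months, is limited by depth.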
